A study of Mus musculus with 12 samples.

Results

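The genes of the calcium channel β subunits, Cacnb1, Cacnb2, Cacnb3 and Cacnb4, were followed in cultured cerebellar granule cells of lethargic mice. Members were all probe sets that the platform annotation assigns to exactly 1 of these symbols, which gave 3 of 18193 annotated genes and 9 of 45101 probe sets. A probe set is a group of short array probes read as 1 value for a transcript. Cacnb1 had 4 probe sets, Cacnb2 had 2 and Cacnb4 had 3. Cacnb3 had 0 and was not analysed here.

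Cultures carried a lentiviral construct of the β4 splice variant β4a, β4b or β4e, or of eGFP as the control, with 3 arrays per construct and 12 in all. Every culture, the eGFP ones included, came from lethargic mice on a 129/SvJ background at postnatal day 7. Virus was applied for 12 hours right after plating, Ara-C was added against dividing non-neuronal cells, and RNA was taken after 9 days in vitro. The labels name neither the promoter that drives the constructs nor the share of cells that took them up. Cultures with intact Cacnb4 were not analysed here, so levels are set against eGFP in mutant cells only. The titles number the arrays of each construct 1 to 3, and nothing in the labels says that these came from separate animals, so p-values measure the spread between these arrays.

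A β subunit is an intracellular protein that binds the pore-forming α1 subunit of high-voltage-activated calcium channels. It helps to bring the channel to the membrane and shapes its gating. The mammalian family has the members β1 to β4, encoded by Cacnb1 to Cacnb4. β4 is abundant in the cerebellum, where it pairs with the P/Q-type pore Cacna1a. The lethargic mutation lies at a splice site of Cacnb4 and gives a truncated protein, and the mice are ataxic and have seizures. β4a and β4b differ at the N terminus, and all variants share the core that binds α1.

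Among the 3 genes with probe sets, only Cacnb4 had signal well above the filter level of 4 on the log2 scale. The level of Cacnb3 is not known from these arrays. The 3 probe sets of Cacnb4 lay between 9.41 and 12.24 on all 12 arrays, those with eGFP included. Of the 6 probe sets of Cacnb1 and Cacnb2, 5 stayed below 4 on all 12 arrays. The sixth, 1440940_at of Cacnb1, exceeded 4 on 1 array. No probe set of the family passed the test for any construct against eGFP.

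Transcription start windows are shown here for Cacnb4 and Cacnb2. Each has a start far inside the gene, where shorter isoforms with another first exon begin. Of this pair only Cacnb4 gave signal above the filter level. The sequences are the 250 bases upstream of the start, 5′ to 3′, credited to RefSeq on build GRCm38.p6. Capitals mark matches on either strand to the GC box GGGCGG, the CAAT box CCAAT, the cyclic AMP response element TGACGTCA and the TATA box TATAAA.
Cacnb4, chr2:52558612-52558861, minus strand: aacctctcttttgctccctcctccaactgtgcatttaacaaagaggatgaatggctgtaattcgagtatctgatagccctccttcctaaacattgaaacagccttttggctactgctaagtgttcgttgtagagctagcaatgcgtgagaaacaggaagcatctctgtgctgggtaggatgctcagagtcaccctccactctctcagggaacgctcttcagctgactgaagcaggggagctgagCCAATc
Cacnb2, chr2:14823842-14824091, plus strand: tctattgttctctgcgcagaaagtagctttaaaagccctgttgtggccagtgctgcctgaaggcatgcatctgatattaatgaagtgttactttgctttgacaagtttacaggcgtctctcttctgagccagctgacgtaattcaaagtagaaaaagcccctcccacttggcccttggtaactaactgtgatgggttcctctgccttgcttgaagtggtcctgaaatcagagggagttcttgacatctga

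The Cacnb4 window had 48.8% G and C and 1 CCAAT, close to the start. The Cacnb2 window had 46% G and C and none of these motifs. Both lay below the median of 52.4% over 32851 windows of the same length, of which 33.8% held the CAAT box, 32.7% the GC box, 12.4% the TATA box and 1.55% the response element. The outermost listed start of Cacnb4 was richer, with 79.6% G and C and 6 GGGCGG matches, some of them overlapping. The outer start of Cacnb1, a gene near background here, had 73.2% and 5 such matches, so this feature was shared by genes with and without signal. A match describes letters and not a bound site.

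Cacnb4 is the mutated gene and the one put back, so its probe sets came first. Probe set 1436912_at had log2 values of 12.04, 11.96 and 12.10 with β4a (replicates 1 to 3), 11.98, 11.80 and 12.09 with β4b, 11.91, 11.87 and 12.15 with β4e, and 12.03, 12.01 and 12.24 with eGFP. All 4 groups overlapped, and replicate 3 was the highest array of each. Probe set 1428928_at read 10.30, 10.75 and 10.87 with β4a, 10.31, 10.55 and 10.72 with β4b, 10.50, 10.69 and 10.99 with β4e, and 10.38, 10.99 and 11.29 with eGFP. Here replicate 1 was the lowest array of every group, and the eGFP arrays spanned the widest range. Probe set 1452089_at stood at 9.97, 9.93 and 10.16 with β4a, 10.23, 9.99 and 10.32 with β4b, 10.02, 9.41 and 10.20 with β4e, and 9.69, 9.47 and 10.05 with eGFP. Replicate 2 was the lowest array of each group, and again no group stood clear of the others.

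**Figure D1:**
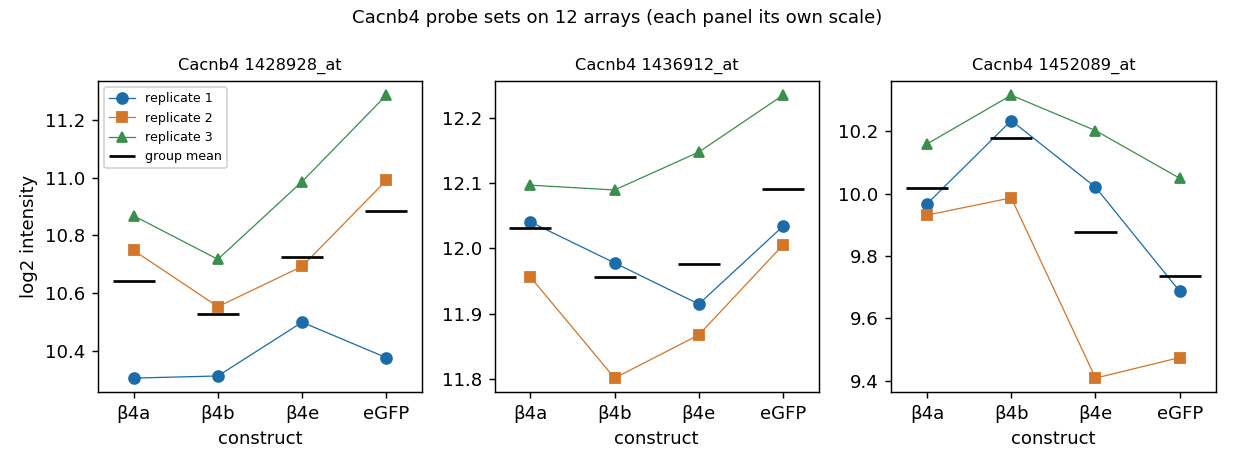
Log2 intensity (y axis) of the 3 Cacnb4 probe sets by construct (x axis), with symbols and thin lines for the replicate numbers and bars for group means (n = 3). The eGFP mean is the highest of the 4 for 1428928_at and 1436912_at and the lowest for 1452089_at, and the groups overlap in all 3 panels.

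The cells were mutant in every group, so the eGFP values are signal read from cells with no β4 construct. In bulk RNA, fewer cells of a type and less RNA per cell cannot be told apart. Which part of Cacnb4 each probe set reads, and whether that part lies in the constructs, is not stated by the labels or the annotation. A probe set outside the constructs does not check their presence.

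Against eGFP the Cacnb4 probe sets did not share a direction. For 1452089_at the mean was 10.02 ± 0.12 with β4a, 10.18 ± 0.17 with β4b and 9.88 ± 0.42 with β4e, against 9.74 ± 0.29 with eGFP (SD, n = 3 each). The log2 changes were 0.28, 0.44 and 0.14 in that order, or 1.22-, 1.36- and 1.10-fold. For 1428928_at it was 10.64 ± 0.30 with β4a, 10.53 ± 0.20 with β4b and 10.73 ± 0.25 with β4e, against 10.88 ± 0.46 with eGFP, which gave -0.24, -0.36 and -0.16. The third, 1436912_at, gave changes of -0.06, -0.14 and -0.11, from means of 12.03 ± 0.07, 11.96 ± 0.15 and 11.98 ± 0.15 against 12.09 ± 0.13 with eGFP. The order of the means ran from β4b over β4a and β4e to eGFP at 1452089_at and the opposite way at 1428928_at, with no neighbours apart by more than their spread.

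None of the 9 comparisons passed. With limma and Benjamini-Hochberg adjustment over 23044 probe sets, 0 were called for β4a, β4b or β4e against eGFP, that is 0% of those tested in each comparison, with 363, 607 and 83 at an unadjusted p under 0.05. The smallest unadjusted p of a Cacnb4 probe set by limma was 0.0728, for 1452089_at with β4b (95% interval of the log2 change -0.05 to 0.93). The interval for 1428928_at with β4b ran from -0.91 to 0.20. Changes up to these bounds are not excluded by this fit, which leaves out the replicate numbers, and the 3 contrasts share the eGFP arrays.

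Same-numbered arrays deviated together, so a second fit took the replicate number as a block. It left each log2 change as it was and narrowed its interval. For β4b the interval of 1452089_at became 0.16 to 0.72 (limma unadjusted p = 0.00585, adjusted p = 0.127) and that of 1428928_at -0.61 to -0.10 (unadjusted p = 0.0106, adjusted p = 0.152). For β4a the adjusted p values by limma were 0.323 and 0.338, and for β4e 0.928 and 0.911. The block brought 3 probe sets past the threshold for β4a and 3 for β4b, 0.013% of those tested in each, and 0 for β4e. None of them was a β subunit probe set. For the mean of the variants minus eGFP the log2 change was 0.29 at 1452089_at, -0.25 at 1428928_at and -0.10 at 1436912_at (limma adjusted p = 0.206, 0.212 and 0.468 with the block), and the block called 5 probe sets, 0.0217% of those tested, again none of the family. At an unadjusted p under 0.05 the block had 15.3% of all probe sets for β4a and 19.3% for β4b, against 1 and 2 of the 3 Cacnb4 probe sets.

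**Figure D2:**
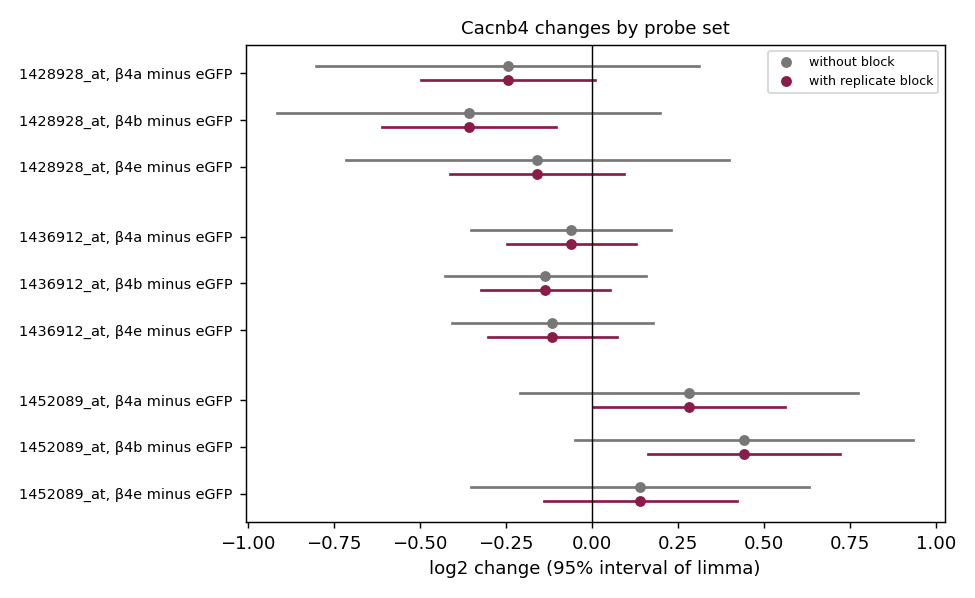
Log2 change of each Cacnb4 probe set for β4a, β4b and β4e minus eGFP (x axis), with the 95% interval of limma without the block (grey) and with the replicate number as a block (purple). Changes are above 0 for 1452089_at and below 0 for the other probe sets; with the block 3 intervals leave 0 out, those of β4a and β4b at 1452089_at and of β4b at 1428928_at, and their adjusted p values by limma are 0.323, 0.127 and 0.152.

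Differences within a replicate number showed the same split. For β4b minus eGFP, 1452089_at differed by 0.55, 0.51 and 0.27 in replicates 1 to 3. All 3 were above 0, as for 22.9% of all tested probe sets. For the same contrast 1428928_at differed by -0.06, -0.44 and -0.57 and 1436912_at by -0.06, -0.20 and -0.15, and 18.1% of all tested probe sets lay below eGFP in all 3 replicates. With β4a, 1452089_at differed by 0.28, 0.46 and 0.11 (19.1% of probe sets were above in all 3) and 1428928_at by -0.07, -0.24 and -0.42 (16.4% were below). With β4e only 1436912_at kept 1 sign, at -0.12, -0.14 and -0.09 (12.4% were below), and 1452089_at differed by 0.33, -0.07 and 0.15. These shares show that 1 sign in all 3 replicates was common on these arrays.

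The variants were also set against each other. For β4b minus β4e the log2 change was 0.30 at 1452089_at (interval -0.19 to 0.79), -0.20 at 1428928_at (-0.76 to 0.36) and -0.02 at 1436912_at (-0.31 to 0.27). For β4a minus β4b these were -0.16 (-0.65 to 0.33), 0.11 (-0.44 to 0.67) and 0.08 (-0.22 to 0.37). For β4a minus β4e they were 0.14 (-0.35 to 0.63), -0.09 (-0.64 to 0.47) and 0.05 (-0.24 to 0.35). Limma called 0 probe sets (0%) in each pair, without and with the block. At an unadjusted p under 0.05 there were 175 for β4b minus β4e, 56 for β4a minus β4b and 153 for β4a minus β4e. With the block these counts were 1638, 619 and 1458, or 7.11%, 2.69% and 6.33% of those tested. The interval of 1452089_at for β4b minus β4e then became 0.02 to 0.58 (limma unadjusted p = 0.0376, adjusted p = 0.691). An F test over the 4 groups without the block called 0 as well (0%), with 175 at an unadjusted p under 0.05.

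Because 2 probe sets of 1 gene differed from eGFP in opposite directions, the log2 difference between them was taken within each array. This measure was chosen because of those directions, so its values are a description with no test, given for all 3 pairs of Cacnb4 probe sets. The difference 1452089_at minus 1428928_at was -0.34, -0.82 and -0.71 with β4a (replicates 1 to 3), -0.08, -0.57 and -0.40 with β4b, -0.48, -1.28 and -0.79 with β4e, and -0.69, -1.52 and -1.24 with eGFP. In each replicate number the order was β4b, β4a, β4e and then eGFP at the low end, and 9 of 9 variant arrays lay above their own eGFP array. These 9 share 3 eGFP arrays, so they are not separate comparisons. How often probe set pairs of other genes show such an order was not counted. The variants exceeded eGFP by 0.54 on average, a 1.46-fold difference, with 0.39, 0.63 and 0.61 in replicates 1 to 3.

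For 1452089_at minus 1436912_at the variants exceeded eGFP by 0.39, with 0.44, 0.43 and 0.30 in replicates 1 to 3 and 9 of 9 arrays above their own eGFP array. For 1436912_at minus 1428928_at the excess was 0.15, with -0.05, 0.20 and 0.31 in replicates 1 to 3 and 8 of 9 arrays above. The third of these differences follows from the other two, so the pairs are not independent. The 3′ minus 5′ difference of the Gapdh control probe sets, a sign of RNA quality, was 0.22, 0.08 and -0.05 with β4a, 0.09, 0.10 and 0.07 with β4b, 0.40, 0.05 and 0.00460 with β4e, and 0.39, 0.12 and 0.03 with eGFP. That of the β-actin control probe sets was larger, at 0.94, 0.93 and 0.85 with β4a and 0.82, 0.85 and 0.92 with β4b. With β4e it was 1.09, 1.02 and 0.96, and with eGFP 0.96, 0.86 and 0.96. The part of RNA quality in these differences was not tested.

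**Figure D3:**
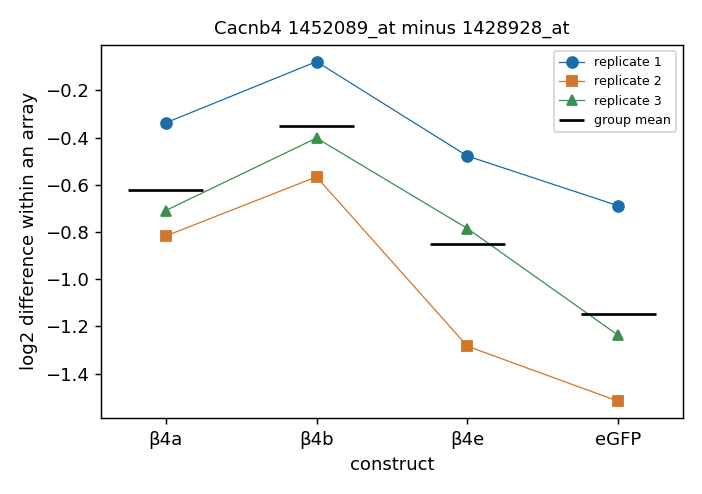
Log2 difference between Cacnb4 probe sets 1452089_at and 1428928_at within an array (y axis) by construct (x axis), with symbols and lines for replicate numbers and bars for group means (n = 3). The lines run downward from β4b to eGFP in all 3 replicates, and group means are -0.62 for β4a, -0.35 for β4b, -0.85 for β4e and -1.15 for eGFP.

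Cacnb1 encodes β1, the β subunit of skeletal muscle channels with splice forms in brain. Its probe set 1440940_at came closest to the filter level, at 3.99, 3.59 and 3.65 with β4a, 3.93, 3.66 and 3.75 with β4b, 4.09, 3.83 and 3.81 with β4e, and 3.97, 3.67 and 3.98 with eGFP. The single value above 4 was β4e replicate 1, just over that level, and the group ranges overlapped. Its other probe sets stayed below 4 throughout: 1425777_at between 3.45 and 3.88, 1451834_at between 2.69 and 3.14 and 1426108_s_at between 2.52 and 3.31.

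Cacnb2 encodes β2, known for its role in cardiac L-type channels. Its probe set 1456401_at lay between 2.95 and 3.67 and 1452476_at between 1.94 and 2.69, below 4 on all 12 arrays. Of these, 1452476_at had values of 2.69, 2.15 and 2.42 with β4a, 2.50, 2.47 and 2.42 with β4b, 2.48, 2.04 and 2.31 with β4e, and 2.33, 1.94 and 2.35 with eGFP. Its values lay above the same-numbered eGFP array in all 3 replicates with β4a (0.36, 0.21 and 0.07 on the log2 scale). With β4b they did so too (0.17, 0.53 and 0.07). Of the probe sets that passed the filter, which leaves this one out, 19.1% and 22.9% were above in all 3. All 3 β4b values exceeded the highest eGFP value, while β4a and β4e overlapped eGFP. At Cacnb1 1425777_at the β4b values, 3.55 to 3.65, all lay below those with eGFP, 3.72 to 3.88. How many probe sets separate in this way was not counted, and these levels lie below 4. Without the filter, the unadjusted p by limma for β4b minus eGFP was 0.153 at 1452476_at and 0.201 at 1425777_at.

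**Figure D4:**
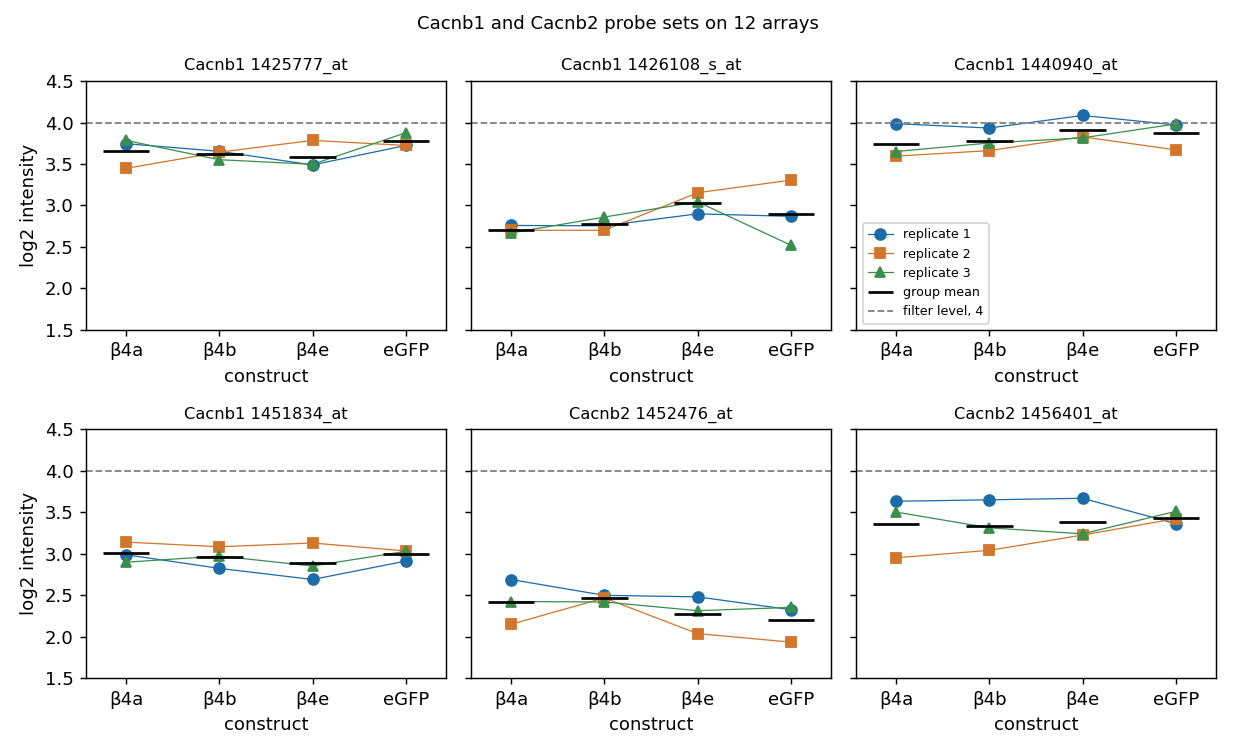
Log2 intensity (y axis) of the 6 Cacnb1 and Cacnb2 probe sets by construct (x axis), with symbols and lines for replicate numbers, bars for group means (n = 3) and a dashed line at the filter level of 4. A single value, β4e replicate 1 of Cacnb1 1440940_at, lies above the line.

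Over these 6 dim probe sets the group means differed from eGFP by -0.19 to 0.26, and 12 of 18 differences were below 0. They were not tested in the filtered fit, as none exceeded 4 on 3 arrays. When all 45037 probe sets other than controls were tested, 0 of their 24 comparisons with eGFP had an unadjusted p under 0.05 by limma. A probe set that is not above background gives only a bound, so Cacnb1 and Cacnb2 may be present at levels below detection.

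More of the spread of the Cacnb4 values lay between replicate numbers than between constructs. Of the sum of squares over 12 arrays, 70.5% lay between replicate numbers at 1428928_at, 70% at 1436912_at and 50.4% at 1452089_at, and 20.1%, 20.5% and 34.9% between constructs. An F test over replicate numbers with the construct as covariate called all 3 (limma adjusted p = 0.00175, 0.0429 and 0.0100), but it called 65.2% of all tested probe sets too. Both 1436912_at and 1452089_at were lowest in replicate 2, and 1428928_at in replicate 1. At 1428928_at replicate 1 was 0.59 below replicate 3 and 0.37 below replicate 2, means of 10.37, 10.75 and 10.96 in order of number (limma adjusted p = 0.00102 and 0.00983, with 48.2% and 53.2% of all probe sets called). At 1452089_at replicate 2 was 0.48 below replicate 3 (adjusted p = 0.00890 by limma, 32.3% called). The call for 1436912_at passed in 1 of 12 fits that left out an array (limma adjusted p 0.0499 to 0.130); the other two kept theirs in 12 of 12. Under median centring it was lost as well (limma adjusted p = 0.0650), and 2 of the 3 probe sets stayed called.

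Granule cell markers were high in every culture, and markers of other cells were present beside them. All 9 granule cell markers with a probe set exceeded 4 on all 12 arrays. The log2 of their summed intensities, the measure used for each list here, stayed between 16.37 and 16.57. The brightest markers weigh most in such a sum, and single markers varied more. Zic2 ran from 10.58 to 12.50 and Fat2 from 10.77 to 12.81. All 4 endothelial markers were below 4 throughout. Of the 4 Purkinje markers, Pcp2 and Ppp1r17 were below 4 throughout, while Calb1 and Car8 exceeded 4 on 8 arrays each, and the summed level was 7.17 to 7.84 in replicate 1, 5.39 to 5.51 in replicate 2 and 5.87 to 6.29 in replicate 3. Oligodendrocyte lineage markers summed to 14.82 to 14.88, 14.51 to 14.67 and 14.20 to 14.44 in order of number, with 6 of 7 above 4 on all arrays. Microglia had 5 of 7 markers above 4 on all arrays and sums of 10.00 to 10.57, 10.06 to 10.81 and 10.56 to 10.88. Fibroblast and meningeal markers, 2 of 5 above 4 throughout, summed to 8.74 to 9.885, 7.60 to 7.95 and 6.67 to 7.15. Of the astrocyte and Bergmann glia list, 7 of 8 markers exceeded 4 on all arrays, with summed levels of 13.63 to 14.57 with β4a, 13.63 to 14.87 with β4b, 13.90 to 13.92 with β4e and 13.23 to 13.96 with eGFP. By replicate number these were 13.63 to 13.96, 13.23 to 13.96 and 13.33 to 14.87 in order. Single markers of this list varied more. Slc1a3 read 9.73, 9.82 and 11.19 with β4a (replicates 1 to 3) and 9.57, 10.26 and 11.42 with β4b. It read 9.72, 10.36 and 10.06 with β4e, against 10.05, 7.79 and 8.84 with eGFP. The eGFP array was thus the lowest in replicates 2 and 3 and the highest in replicate 1. The part of this list in the Cacnb4 differences was not tested. Interneuron markers were summed to 13.61 to 13.82 in replicate 1, 12.48 to 12.81 in replicate 2 and 12.99 to 13.42 in replicate 3, with Gad1, Gad2 and Pvalb above 4 throughout and Slc6a5 on 2 arrays. The unipolar brush cell marker Eomes exceeded 4 on all arrays. The part of these markers in the replicate differences of Cacnb4 was not tested.

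Genes whose levels followed the brightest Cacnb4 probe set, 1436912_at, most closely over the 12 arrays were Eml5 (r = 0.954), Rab2b (r = 0.946) and Col27a1 (r = 0.937). After the mean of each replicate number was subtracted, the closest were Zic5 (r = 0.955), Sez6 (r = 0.932) and Zkscan1 (r = 0.931), none of them among the first 3. Rab2b, Col27a1 and Sez6 reached below 4 on some arrays. Each was the highest of many correlations over arrays that share a replicate number, and they describe likeness of pattern only.

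A list of 31 genes held calcium channel subunit families, genes whose products bind β subunits and reported nuclear partners of β4. It was read from the same fit, with 19 measured. None passed the test for any construct, with or without the block. The median log2 change was -0.03 for β4a, -0.13 for β4b and 0.03 for β4e, beside 0.02, 0.03 and 0.01 over all tested probe sets. At an unadjusted p under 0.05 the list had 0 genes without the block in each comparison, and 8, 7 and 1 of 19 with it, beside 15.3%, 19.3% and 5.54% of all tested probe sets under the block.

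The pore subunits carry the calcium current, and those of high-voltage-activated channels bind β at their first intracellular loop. Of the 10 listed, 6 were measured, among them Cacna1g, a T-type pore outside that class. All 6 had means below eGFP with each variant (median -0.35 with β4a and with β4b, and -0.12 with β4e). Of all tested probe sets 27.8% had means below eGFP with each variant, the 3 comparisons share the eGFP arrays, and 0 of the 6 passed the test. Cacna1b, the N-type pore, had 9.94 ± 0.17 with β4a, 9.79 ± 0.14 with β4b and 10.03 ± 0.19 with β4e, against 10.12 ± 0.15 with eGFP (SD, n = 3 each). Cacna1e, the R-type pore, had 11.77 ± 0.28, 11.73 ± 0.34 and 11.96 ± 0.08, against 12.10 ± 0.13 with eGFP. The β4 partner Cacna1a had 11.29 ± 0.23, 11.15 ± 0.10 and 11.23 ± 0.15, against 11.32 ± 0.08 with eGFP. The smallest adjusted p of the list was that of the L-type pore Cacna1d with β4b under the block (log2 change -0.85, limma adjusted p = 0.122).

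Gem and Rem2 are small GTPases of the RGK family, which bind β subunits and lower channel activity. Gem had the largest log2 difference of the list, 2.20 with β4a, 1.57 with β4b and 1.05 with β4e. Its means were 5.85 ± 2.23, 5.22 ± 1.54 and 4.70 ± 2.16, against 3.65 ± 1.15 with eGFP, a level below 4, so these differences are not exact. By limma its adjusted p was 0.9999 with every variant, and 0.173, 0.165 and 0.892 under the block, so it was not called. Rem2 differed from eGFP by 0.51, 0.29 and 0.21 and did not pass either. Of the α2δ subunits, extracellular partners of the pore, 3 of 4 were measured, and of the γ family, which includes AMPA receptor regulators, 4 of 8. Cacng5 had the largest log2 difference of these, 0.88, 1.15 and 0.64, and did not pass. Rims1 and Rims2, active zone proteins that bind β, differed by at most 0.19 in size, and Ppp2r5d and Thra by at most 0.09.

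**Figure D5:**
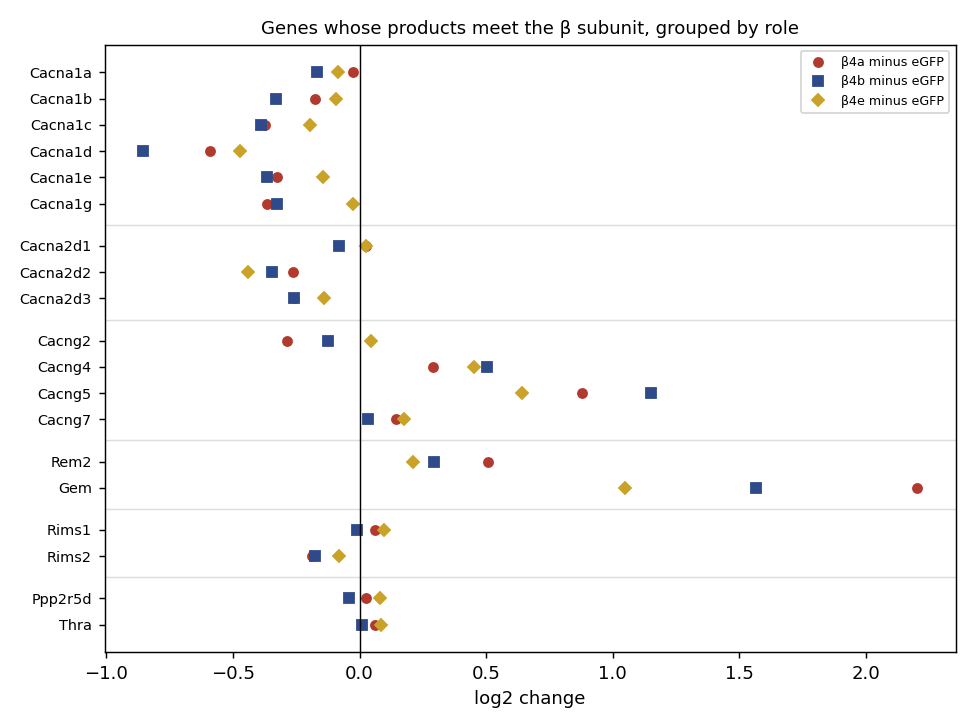
Log2 change against eGFP (x axis) of the 19 measured partner genes, grouped by role from pore subunits at the top to reported nuclear partners at the bottom, with 1 symbol per variant. The 6 pore subunits lie left of 0 for all variants and Gem lies farthest right, and no gene passed the test.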

How the data were processed

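Total RNA (500 ng per sample) was amplified and biotin-labelled from the 3′ end and hybridised to Affymetrix mouse arrays, per the labels' protocols. The authors deposited log2 intensities computed with GCRMA, per the submitters' processing notes; its version is not given in the sources used here. They ran from 1.27 to 15.02, were used as deposited, and the number of arrays limits their precision. Background correction could not be varied.

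Probe sets above 4 on at least 3 of 12 arrays were tested (23044 of 45101; 64 controls left out). Gene names came from the platform annotation, in which 34945 probe sets carry 1 symbol, 932 carry more and 9160 are unnamed. All arrays entered 1 fit with limma 3.58.1 in R 4.3.3 (lmFit, eBayes, 1 coefficient per construct, 8 residual degrees of freedom), two-sided, with Benjamini-Hochberg adjustment and a threshold of 0.05; the code was tested on simulated data. The replicate number was tried as a block (6 degrees of freedom): the deviations of all 18 same-numbered pairs of arrays correlated (r = 0.699 to 0.884), against at most 0.146 for the 36 pairs that differed in number and construct, so the numbers in the titles were taken to pair the arrays. Members, lists and the rule for naming genes (all member probe sets, the 3 genes most correlated with the brightest one, and partner genes with the smallest p) were chosen with earlier results of these data known. Partner genes and markers were read from their brightest probe set. Alternatives were quantile normalization, median centring, other filters, robust eBayes with a trend, array weights, only the groups compared, and leaving out each array.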

Additional observations from a re-analysis of the deposited data

How the results depend on the processing

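The count of β subunit probe sets called against eGFP or between variants was 0 under every alternative run (quantile normalization, median centring, no filter, a filter at 6, robust eBayes with a trend, array weights, only the groups compared, the replicate block and each of 12 fits without 1 array). Over all probe sets the replicate block moved the count of calls from 0 to 3 for β4a, 3 for β4b and 5 for the variants' mean minus eGFP; it left the counts between variants and over the 4 groups at 0. The block changed the call of no β subunit probe set. Other filters, the block, robust eBayes and the restriction to the groups compared cannot alter a log2 change. Leaving out an array of a group outside the comparison cannot either, so many recomputed changes were fixed in advance. Of 237 recomputed Cacnb4 changes, 234 kept their direction and 0 passed. The exceptions were 1436912_at with β4a and 1428928_at with β4e without eGFP replicate 3, and 1452089_at with β4e without β4e replicate 3. Their log2 changes were then 0.012, 0.043 and -0.022, and over all fits without 1 array they spanned -0.10 to 0.012, -0.41 to 0.043 and -0.022 to 0.37. The changes with β4b stayed between 0.31 and 0.60 at 1452089_at and between -0.61 and -0.16 at 1428928_at. With β4a they ran from 0.15 to 0.44 and from -0.50 to -0.04, and for the variants' mean from 0.16 to 0.44 and from -0.51 to -0.05, with -0.15 to -0.03 at 1436912_at.

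The excess of 1452089_at over 1428928_at with the variants, chosen after seeing the data, stayed between 0.49 and 0.62 on leaving out an array and was 0.52 under quantile normalization. The count of probe sets that differed between replicate numbers was 15027, and 9881 with the filter at 6, which tests fewer probe sets. Without a filter 5 of the 9 β subunit probe sets differed between replicate numbers, adding dim ones of Cacnb1 and Cacnb2. In that fit 18012 of all 45037 probe sets were called.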
